A study of Homo sapiens with 9 samples.

Results

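Human chromosome 19 carries dense clusters of zinc finger genes, and their transcripts were followed through heat shock and recovery in HEK293T cells. The genes were chosen by name, position and level: protein-coding genes with a ZNF number as symbol, located on chromosome 19, with at least 50 counts summed over the 9 libraries of the series. This gave 187 genes out of the 60664 in the table. Of the 251 protein-coding ZNF genes of the chromosome, the other 64 had fewer than 50 counts. The genes just outside that limit were ZNF880 with 46 counts, ZNF284 with 42, ZNF492 with 32 and ZNF793 with 32, and those just inside were ZNF471 with 50, ZNF57 with 58, the read-through gene ZNF559-ZNF177 with 61 and ZNF726 with 68. All 187 also passed the filter on low counts that was applied to the whole table.

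HEK293T is an established line of human embryonic kidney cells that carries a viral large T antigen. The untreated wild-type cells (NC, 2 libraries) were kept at 37 °C, the H1 cells (2 libraries) were heated at 43 °C for 1 h, and the recovering cells were heated in the same way and returned to 37 °C for 1 h (H1R1, 2 libraries), 6 h (H1R6, 2 libraries) or 18 h (H1R18, 1 library). All came from the same line, with no gene altered. Total RNA without ribosomal RNA was sequenced, and the libraries held between 3814195 and 6221613 counts, of which the 187 genes took between 0.302% and 0.345%. Of 4 genes known from HEK293 cells, NEFL, NEFM, LIN28B and PAX2 had at least 32 counts in every library, while PTPRC, ALB, PECAM1 and MYH6, which mark leukocytes, hepatocytes, endothelium and heart muscle, had at most 5. The labels do not say whether replicate libraries were made from different cultures, so p-values reflect only the variation between these libraries, which may be technical. H1R18 was assumed to vary like the other conditions.

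A C2H2 zinc finger is a short loop of protein held by a zinc ion, and tandem arrays of such fingers read DNA sequence. In most genes of these clusters the array follows a KRAB domain, which binds the scaffold protein TRIM28. TRIM28 in turn brings in the histone methyltransferase SETDB1, heterochromatin proteins and histone deacetylases, and the target, often a transposable element, is silenced. The clusters grew by tandem duplication, so neighbours share finger sequences and often promoters. Transcripts of this class are known for short half-lives, and most are present at low levels.

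These features were visible in the genes studied. Of the 186 genes with a coding transcript in the annotation used, 152 encoded a match to the KRAB A-box pattern and 34 did not. The number of fingers ranged from 0 to 31, with a median of 12. The median 3′ UTR length was 1011 bases, with a median of 2 copies of the AU-rich pentamer ATTTA. Length-scaled levels in NC, as RPKM (counts scaled by exon length and library size), ran from 0.106 to 33.3 with a median of 1.95. The median gene had 480 counts over all libraries.

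The first sequences shown are promoters, printed because 3 of the 10 genes that rose during early recovery are neighbours that share promoter sequence. The motifs searched, and the genes shown, were chosen after the values were seen. The cAMP response element TGACGTCA, a palindrome and so the same on both strands, was found in 649 of 35116 RefSeq promoters (1.85%; windows from 250 bases before to 50 bases after the start), and in 7 of the 167 genes of the set with a promoter in that list (4.19%). Of those 7, 5 lay in the first cluster of the chromosome, where 9 genes were matched. These were ZNF121, ZNF266, ZNF426, ZNF561 and ZNF562. The other 2, ZNF543 and ZNF547, were among 158 genes matched elsewhere. Capitals below mark that element, in the RefSeq sequences of build GRCh38.p14, minus strand, 5′ to 3′. ZNF561 (chr19:9621183-9621482), ZNF562 (chr19:9675051-9675350) and ZNF121 (chr19:9584455-9584754) were called higher at H1R1, and ZNF266 (chr19:9435524-9435823) was called lower.
ZNF561: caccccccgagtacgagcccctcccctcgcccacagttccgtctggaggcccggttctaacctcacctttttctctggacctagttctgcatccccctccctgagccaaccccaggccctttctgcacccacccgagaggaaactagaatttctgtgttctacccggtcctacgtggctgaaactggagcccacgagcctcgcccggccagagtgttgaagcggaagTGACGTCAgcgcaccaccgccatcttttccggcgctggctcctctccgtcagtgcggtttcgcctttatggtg
ZNF562: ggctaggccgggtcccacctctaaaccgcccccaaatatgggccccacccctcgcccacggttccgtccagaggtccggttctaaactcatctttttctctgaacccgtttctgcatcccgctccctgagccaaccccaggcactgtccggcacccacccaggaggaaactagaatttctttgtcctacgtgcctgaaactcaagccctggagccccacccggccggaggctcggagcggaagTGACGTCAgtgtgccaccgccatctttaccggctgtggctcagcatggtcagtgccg
ZNF121: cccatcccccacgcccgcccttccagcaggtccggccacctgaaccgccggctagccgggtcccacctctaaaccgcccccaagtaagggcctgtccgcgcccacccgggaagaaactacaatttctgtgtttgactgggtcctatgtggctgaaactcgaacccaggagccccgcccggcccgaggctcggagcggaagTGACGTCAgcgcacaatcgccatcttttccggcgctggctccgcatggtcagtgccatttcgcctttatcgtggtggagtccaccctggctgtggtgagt
ZNF266: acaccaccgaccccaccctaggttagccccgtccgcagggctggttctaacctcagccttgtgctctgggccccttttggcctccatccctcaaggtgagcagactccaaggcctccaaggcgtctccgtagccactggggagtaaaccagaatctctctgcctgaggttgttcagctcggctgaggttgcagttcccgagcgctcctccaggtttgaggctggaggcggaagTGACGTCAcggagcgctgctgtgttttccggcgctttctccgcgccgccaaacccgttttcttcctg
The element begins 23 bases before the start in ZNF561, 7 before it in ZNF562, 50 before it in ZNF121 and 17 before it in ZNF266. ZNF121 and ZNF562 share an unbroken run of 26 bases in these windows, ZNF121 and ZNF561 one of 22, and ZNF561 and ZNF562 one of 17.

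For comparison, promoters are shown of 2 of the 3 genes whose fall at H1R1 held in every setting tried (the other is ZNF606). They lie in other parts of the chromosome and are ZNF224 (chr19:44094111-44094410, plus strand) and ZNF536 (chr19:30225342-30225641, plus strand). The ZNF536 window lies upstream of the gene as counted, which starts at 30228290. Neither window contains the element, which is the usual case, since only 7 of the 167 matched genes have it. Of the genes called higher at H1R1, only ZNF561, ZNF562 and ZNF121 are among those 7. A link between the element and the changes was not tested.
ZNF224: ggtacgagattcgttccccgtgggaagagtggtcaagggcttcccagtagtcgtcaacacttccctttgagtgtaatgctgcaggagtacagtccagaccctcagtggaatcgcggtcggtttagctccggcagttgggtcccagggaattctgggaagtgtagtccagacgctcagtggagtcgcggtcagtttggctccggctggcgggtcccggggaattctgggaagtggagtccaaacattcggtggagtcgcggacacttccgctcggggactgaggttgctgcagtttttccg
ZNF536: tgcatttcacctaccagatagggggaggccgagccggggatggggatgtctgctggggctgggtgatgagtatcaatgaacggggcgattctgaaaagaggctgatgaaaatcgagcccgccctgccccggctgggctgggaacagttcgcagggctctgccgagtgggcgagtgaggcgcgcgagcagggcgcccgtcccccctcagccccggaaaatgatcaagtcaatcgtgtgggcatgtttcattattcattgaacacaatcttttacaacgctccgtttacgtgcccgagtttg
Heat shock elements, at which the heat shock factor HSF1 binds, were searched as inverted pairs of their 3-base core. GAANNTTC was present in 12 of the 167 promoters (7.19%) and in 6.77% of all promoters, and TTCNNGAA in 11 (6.59%) and in 7.74%. Both patterns are palindromes, and they may overlap each other. ZNF83 was the gene listed for both. The median promoter of the set held 22 CpG dinucleotides, against 14 for all promoters. The whole list served as the comparison for CpG and motifs and was not matched to the set by gene type or level.

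Finger sequences are shown for neighbouring gene pairs whose transcripts moved alike or apart. Each line is the coding sequence of 1 finger unit of 84 bases, the finger of the first gene with the middle number of mismatches to its best match in the second, and capitals mark the mismatches.
ZNF264: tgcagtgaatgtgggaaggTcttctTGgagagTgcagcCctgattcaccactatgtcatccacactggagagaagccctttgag
ZNF805: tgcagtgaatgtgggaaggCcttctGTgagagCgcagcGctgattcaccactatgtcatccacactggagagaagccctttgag
ZNF587: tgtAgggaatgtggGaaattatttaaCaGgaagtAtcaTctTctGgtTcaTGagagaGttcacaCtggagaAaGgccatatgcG
ZNF587B: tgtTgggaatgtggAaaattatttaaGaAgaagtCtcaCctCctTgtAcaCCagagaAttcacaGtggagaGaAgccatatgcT
ZNF780A: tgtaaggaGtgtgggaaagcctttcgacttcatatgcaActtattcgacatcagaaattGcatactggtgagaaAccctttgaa
ZNF780B: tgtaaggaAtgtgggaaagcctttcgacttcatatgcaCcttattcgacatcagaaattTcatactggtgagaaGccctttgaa
ZNF561: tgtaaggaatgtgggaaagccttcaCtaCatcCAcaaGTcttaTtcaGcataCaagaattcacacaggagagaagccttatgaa
ZNF562: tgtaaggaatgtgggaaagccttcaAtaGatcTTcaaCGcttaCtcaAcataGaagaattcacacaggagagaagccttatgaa
The units differ by 5 bases in ZNF264 and ZNF805, 16 in ZNF587 and ZNF587B, 4 in ZNF780A and ZNF780B, and 9 in ZNF561 and ZNF562. Reads that align to several places were not counted by the authors. The share of 50-base stretches of the transcript found unchanged in another gene's transcript was 38.0% in ZNF587, 38.2% in ZNF587B, 10.0% in ZNF805, 3.08% in ZNF264, 9.88% in ZNF780A, 3.31% in ZNF780B, 6.98% in ZNF561 and 17.5% in ZNF562. It passed 20% in 23 genes, ZNF224 among them at 48.3%, and counts of such genes rest on the rest of their sequence.

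In NC the most abundant genes of the set per length were ZNF146, with 33.3 RPKM, ZNF121, with 29.2 RPKM, and ZNF460, with 21.3 RPKM. ZNF146 encodes a protein made almost entirely of fingers, with no KRAB domain. By mean level over all libraries, on a scale not corrected for length, the order began with ZNF121, ZNF146, ZNF507, ZNF460, ZNF562 and ZNF714. ZNF714 had 70.6 and 67.6 CPM (counts scaled by library size with the TMM method) in NC and 55.4 at H1R18. ZNF146 had 137 and 139 CPM in NC, then 134 and 139 after heat, 149 and 156 after 1 h of recovery, 144 and 150 after 6 h and 115 after 18 h, and no difference from NC passed the test. ZNF460 had 76.9 and 93.4 CPM in NC and between 92.9 and 107 in every later library, again without a call.

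After heat for 1 h, 5 of the 187 transcripts passed the test. The H1 comparison asks what had changed by the end of the heat itself. ZNF780A was called higher, and ZNF606, ZNF524, ZNF555 and ZNF627 were called lower (edgeR's quasi-likelihood test, Benjamini-Hochberg adjusted p under 0.05 over 21139 genes). That is 1 of 187 higher, where 3.43% of all genes were called higher, and 4 lower, where 1.77% of all genes were. The median log2 fold change of the set was -0.11, against -0.01 for all genes. At an unadjusted p under 0.05, 12 were higher and 16 lower. Without either NC library or either H1 library, fewer genes were called lower, in the set and over all genes. DESeq2 called none of the set in either direction, and 393 higher and 157 lower of 16221 over all genes.

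ZNF780A (chr19:40069152-40090943) had 33.6 and 35.5 CPM in NC and 54.0 and 47.5 at H1. Its log2 fold change was 0.56 ± 0.15 (SE, adjusted p = 0.019), and at H1R1, with 44.4 and 43.6 CPM, its adjusted p was 0.099. ZNF780B, its neighbour with nearly the same fingers, had 40.8 and 39.7 CPM in NC and 40.6 and 42.7 at H1. The libraries of NC and H1 did not overlap in ZNF780A and overlapped in ZNF780B. The call of ZNF780A was lost without the first NC library (adjusted p = 0.13), the second NC library (0.062) or the first H1 library (0.22), and under DESeq2 (0.099).

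ZNF606 (chr19:57977076-58003349), a KRAB zinc finger gene of the ninth cluster, had 9.79 and 10.7 CPM in NC and 3.92 and 3.89 at H1, a log2 fold change of -1.38 ± 0.37 (adjusted p = 0.019). It stayed low at H1R1, with 3.68 and 2.34 CPM and a log2 fold change of -1.72 ± 0.38 (adjusted p = 0.0013). At H1R6 it had 6.01 and 6.61 CPM and at H1R18 4.11 CPM, below both NC libraries, without passing the test. The fall at H1R1 was the 1 call of this gene that held in all 17 alternative settings.

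ZNF524 (chr19:55600022-55603138), a short gene without a KRAB domain, had 9.38 and 10.96 CPM in NC, then 4.28 and 3.53 after heat and 3.34 and 4.22 after 1 h of recovery. Its log2 fold changes were -1.37 ± 0.36 and -1.43 ± 0.37 (adjusted p = 0.018 and 0.0051), and at H1R6, with 8.12 and 5.56 CPM, no difference was called. ZNF627 (chr19:11559374-11619161) went from 15.1 and 16.2 CPM in NC to 7.13 and 8.12 at H1 and 5.85 and 9.38 at H1R1, with log2 fold changes of -1.03 ± 0.28 and -1.06 ± 0.28 (adjusted p = 0.023 and 0.0071). Both genes lost the H1R1 call when the first H1R1 library was left out, with adjusted p = 0.078 for ZNF524 and 0.17 for ZNF627. Both overlap a gene on the opposite strand, FIZ1 and ACP5, and the authors' counting used no strand.

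**Figure D1:**
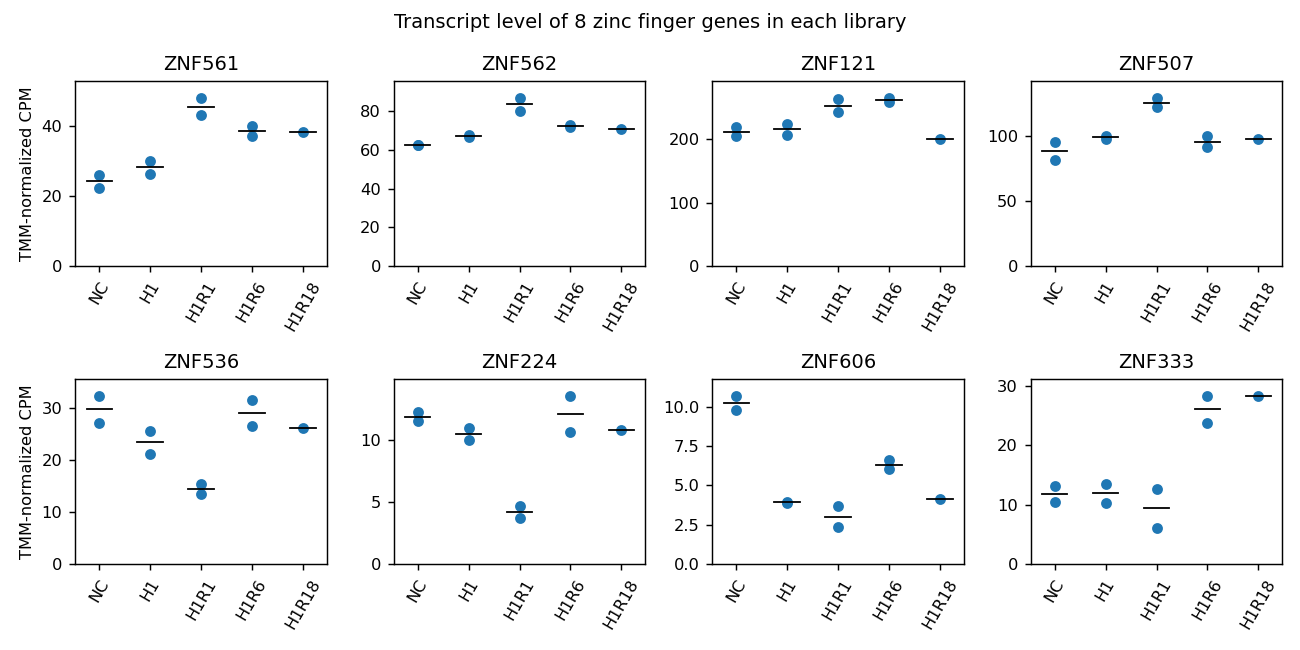
TMM-normalized CPM (vertical axes, from 0) of 8 zinc finger genes in NC, H1, H1R1, H1R6 and H1R18; each dot is 1 library and each line the mean of a condition. ZNF561, ZNF562 and ZNF507 peaked at H1R1, ZNF536 and ZNF224 had their lowest values there, ZNF606 was lowest from H1 to H1R1, and ZNF333 was high only from H1R6 on.

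After 1 h of recovery the set was split by abundance. Of the 94 genes at or above the median level of the set, 10 were called higher and 7 lower, while of the 93 below it none was called higher (1 at an unadjusted p under 0.05) and 15 were called lower. In all, 10 genes rose, or 5.35%, where 10.7% of all genes were called higher, and 22 fell, or 11.8%, where 9.53% of all genes were called lower. A split in this direction was also found in coding genes as a whole, of which 17.9% were higher and 13.8% lower at or above that level, and 5.21% and 7.88% below it. The median log2 fold change was -0.18 for the set, -0.01 for the more abundant genes and -0.40 for the less abundant ones, against -0.01 for all genes tested. Protein-coding genes whose level lay between the quartiles of the set had a median of -0.20, so the set as a whole lay close to other coding genes of its level. ZNF genes of other chromosomes had a median of -0.02, with 36 higher and 36 lower of 229.

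The median difference from the NC mean for the less abundant genes was -0.35 in the first H1R1 library and -0.31 in the second (log2 CPM), so both were low. The count of calls rested much more on the first. Over all genes tested, calls also fell further without it than without the second. Fewer genes were also lower without either NC library, in the set and over all genes. DESeq2 called 10 lower and 7 higher. Over all genes it called 1128 lower and 1573 higher of 16221, where edgeR called 2015 and 2254 of 21139. Across the 187 genes, Spearman's rho between average level and the log2 fold change was 0.34 at H1R1 and 0.12 at H1R18, given as a description, since level and change come from the same counts. The rho of the number of fingers, 3′ UTR length, ATTTA copies, GC content and shared sequence with the changes lay between -0.13 and 0.14 in the 4 comparisons with NC.

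**Figure D2:**
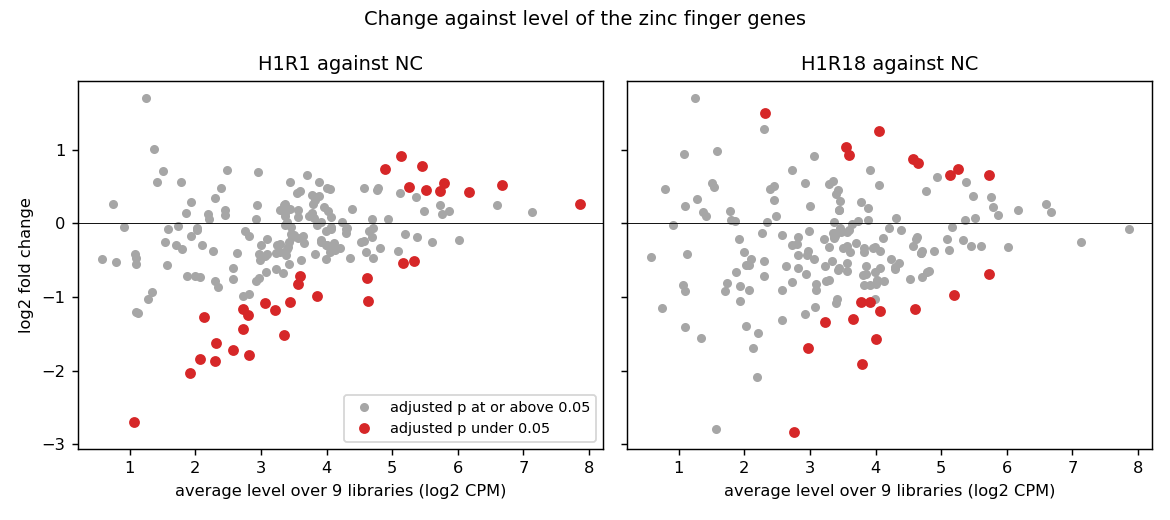
Log2 fold change against NC (vertical axis) at H1R1 and H1R18 by average level over the 9 libraries (log2 CPM, horizontal axis); each dot is 1 of 187 genes, in red where the adjusted p was under 0.05. At H1R1 the 10 red dots above 0 all belong to genes above the median level of 3.44 and most of the 22 below 0 to genes under it, while at H1R18 the grey dots lie mostly below 0 among less and more abundant genes.

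Of the genes that rose at H1R1, 3 were the neighbours in the first cluster shown above. ZNF561 (chr19:9604680-9621236) had 26.1 and 22.4 CPM in NC, then 29.9 and 26.5 after heat, 48.1 and 43.1 after 1 h of recovery, 37.1 and 40.0 after 6 h and 38.2 after 18 h. Every library from H1R1 on was above both NC libraries. The log2 fold change was 0.91 ± 0.17 at H1R1 (adjusted p = 0.00015), 0.66 ± 0.17 at H1R6 (adjusted p = 0.011) and 0.65 ± 0.21 at H1R18 (adjusted p = 0.040). The call at H1R1 held in all 17 alternative settings, that at H1R6 was lost without the second NC library (adjusted p = 0.095) or the second H1R6 library (0.11), and that at H1R18 held in 11 of 16 settings. It was lost without the second NC library (0.14), the first H1 library (0.051) or a filter on low counts (0.064), under DESeq2 (0.094) and with a replicate block (0.078).

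ZNF562 (chr19:9641807-9675100) had 62.6 and 62.4 CPM in NC, then 67.7 and 66.8 after heat, 86.7 and 80.2 after 1 h of recovery, 71.9 and 72.5 after 6 h and 70.6 after 18 h. It was above NC throughout but passed the test only at H1R1, with 0.42 ± 0.11 (adjusted p = 0.0066). Without the first H1R1 library the adjusted p was 0.089. ZNF121 (chr19:9560329-9584504), the most abundant gene of the set, had 218 and 204 CPM in NC, then 224 and 206 after heat, 242 and 263 after 1 h of recovery, 258 and 265 after 6 h and 200 after 18 h. It rose by 0.26 ± 0.08 at H1R1 (adjusted p = 0.024) and by 0.31 ± 0.08 at H1R6 (adjusted p = 0.016), and neither call held without the second NC library (adjusted p = 0.13 and 0.088) or the second library of the recovery condition (0.17 and 0.12). The H1R1 call held in 13 of 17 settings. At H1R6 the call was also lost without the first H1R6 library (0.052).

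None of the other genes with the element was called higher. ZNF266 (chr19:9412429-9435573) had 39.4 and 54.8 CPM in NC, then 39.2 and 44.5 after heat, 34.1 and 31.4 after 1 h of recovery and between 36.9 and 41.2 later. It fell by 0.51 ± 0.16 on the log2 scale at H1R1 (adjusted p = 0.027). That call was lost without the second NC library (adjusted p = 0.40) or either H1R1 library (0.080 and 0.12), and under DESeq2 (0.089). ZNF426 had 15.5 and 19.3 CPM in NC and 15.7 and 17.8 at H1R1, with overlapping ranges. ZNF543 and ZNF547 of the ninth cluster were not called in any comparison with NC. ZNF543 had 25.7 and 28.4 CPM in NC and 23.7 and 21.1 at H1R1. ZNF547, of low level, had 0.816 and 1.04 CPM in NC, 4.1001 and 4.42 at H1 and 2.67 and 0.938 at H1R1, with log2 fold changes of 2.18 ± 0.71 (adjusted p = 0.072) and 1.01 ± 0.77 (adjusted p = 0.40).

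The other genes that rose lay outside the first cluster. ZNF574 (chr19:42068477-42081552), which has no KRAB domain, had 40.0 and 29.7 CPM in NC, then 40.3 and 54.0 after heat, 62.8 and 57.7 after 1 h of recovery, 33.6 and 40.3 after 6 h and 28.5 after 18 h. Both H1 libraries lay above both of NC without passing the test (0.42 ± 0.17, adjusted p = 0.15), and the log2 fold change at H1R1 was 0.78 ± 0.16 (adjusted p = 0.00079). ZNF557 (chr19:7069703-7087968), with a KRAB domain, had 25.7 and 20.9 CPM in NC, then 24.2 and 26.3 after heat, 38.4 and 40.1 after 1 h of recovery, 34.97 and 33.4 after 6 h and 18.0 after 18 h, and rose by 0.74 ± 0.17 at H1R1 (adjusted p = 0.0024). ZNF507 (chr19:32345594-32387667), without KRAB, had 81.6 and 95.5 CPM in NC, then 98.0 and 100.3 after heat, 122 and 130 after 1 h of recovery, 91.5 and 100.3 after 6 h and 98.3 after 18 h, a rise of 0.51 ± 0.10 at H1R1 (adjusted p = 0.00037). All 3 of these calls held in every alternative setting.

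ZNF431 (chr19:21142024-21196053), of the third cluster, went from 42.2 and 51.1 CPM in NC to 71.3 and 64 at H1R1, a log2 fold change of 0.55 ± 0.13 (adjusted p = 0.0033). That call was lost without the first NC library (adjusted p = 0.085) or the first H1R1 library (0.068). ZNF587, ZNF264 and ZNF805 of the ninth cluster also rose at H1R1, with log2 fold changes of 0.45 ± 0.14, 0.44 ± 0.14 and 0.49 ± 0.16 (adjusted p = 0.023, 0.022 and 0.025), and DESeq2 called none of them. None of these calls held without the second NC library (adjusted p = 0.20, 0.19 and 0.13). They were also lost without the first H1R1 library in ZNF587 (0.17) and ZNF264 (0.067) and without the second in ZNF264 (0.095) and ZNF805 (0.13).

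Among the genes that fell at H1R1, ZNF536 and ZNF224 were low in both libraries and overlapped NC again at H1R6. ZNF536 (chr19:30228290-30713538), a gene without KRAB that is known to restrain neuronal differentiation, had 32.4 and 27.1 CPM in NC, then 21.2 and 25.6 after heat, 13.5 and 15.5 after 1 h of recovery, 26.5 and 31.6 after 6 h and 26.2 after 18 h. Its log2 fold change at H1R1 was -1.05 ± 0.20 (adjusted p = 0.00030). ZNF224 (chr19:44094339-44109886), a KRAB gene of the sixth cluster known as a repressor of aldolase A, had 12.2 and 11.5 CPM in NC, then 9.98 and 10.9 after heat, 3.68 and 4.69 after 1 h of recovery, 10.6 and 13.6 after 6 h and 10.8 after 18 h. Its log2 fold change at H1R1 was -1.52 ± 0.32 (adjusted p = 0.00067). These 2 genes, named after their values were seen, and ZNF606 were the falls that held in all 17 alternative settings.

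Among genes averaging at least 2 log2 CPM, those with the largest falls at H1R1 were less abundant and rested on the first library. ZNF837 had 7.34 and 5.22 CPM in NC, 0.835 and 2.81 at H1R1 and 6.71 and 5.74 at H1R6, with a log2 fold change of -1.87 ± 0.50 at H1R1 (adjusted p = 0.0073) that became -1.16 (adjusted p = 0.18) without the first H1R1 library. ZNF784, a gene without KRAB in the eighth cluster, had 8.56 and 11.5 CPM in NC, 1.00 and 5.16 at H1R1 and 10.2 and 6.95 at H1R6. Its change of -1.80 ± 0.45 (adjusted p = 0.0042) became -0.94 (adjusted p = 0.18) without that library. ZNF221 of the sixth cluster had 4.89 and 6.78 CPM in NC and 1.00 and 2.34 at H1R1, and its change of -1.84 ± 0.55 (adjusted p = 0.017) became -1.29 (adjusted p = 0.22). ZNF837 was also lost without the first NC library (adjusted p = 0.089), and ZNF221 without the second (0.11) and under DESeq2 (0.060). The ranges of NC and H1R1 did not overlap in any of these genes, but the H1R1 libraries were far apart. Below that level, ZNF345, with 5.30 and 4.18 CPM in NC and 1.67 and 0.469 at H1R1, fell by 2.04 ± 0.63 on the log2 scale (adjusted p = 0.020), a call lost without the second H1R1 library (0.15), the first NC library (0.12) and under DESeq2 (0.061). ZNF155, with 12 counts in each NC library and 0 and 4 at H1R1, was also called lower (adjusted p = 0.049) and held in 8 of 15 settings. Both were named after their values were seen.

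By position, the falls at H1R1 were most frequent in the sixth and eighth clusters (43.53 to 44.50 Mb and 55.48 to 56.67 Mb). Clusters were formed where neighbouring ZNF genes lay at most 500 kb apart and held at least 5 genes of the set, which placed 170 genes in 9 clusters and left 17 outside. Of all genes tested, 50.7% were below 0, 9.53% called lower and 10.7% higher, and of coding genes within the quartiles of the set's level 63.7% were below 0, 15.3% lower and 6.59% higher. In the sixth, 16 of 19 genes were below 0, 4 were called lower and none higher (1 at an unadjusted p under 0.05), and the median was -0.43. In the eighth, 12 of 14 were below 0, 5 were lower and none higher (1 unadjusted), and the median was -0.44. The medians were low in both H1R1 libraries, as log2 differences from the NC mean. They were -0.48 and -0.31 in the sixth and -0.31 and -0.44 in the eighth. The calls rested more on the first library. Without it every call of the eighth was lost, and in the sixth those of ZNF221, ZNF155 and ZNF233. In the seventh cluster (51.57 to 53.58 Mb, 26 genes), which lies between them, no gene was called in either direction, none had an unadjusted p under 0.05, and the median was -0.08. The differences between clusters were not tested.

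Of the other clusters at H1R1, the first (8.51 to 9.79 Mb, 11 genes) had 3 genes higher and 2 lower and a median of -0.05, the second (11.48 to 12.64 Mb, 12 genes) 1 lower and a median of -0.27, and the third (19.67 to 24.13 Mb, 16 genes) 1 higher, 1 lower and a median of -0.07. The fourth (34.68 to 34.96 Mb, 5 genes) had no call and a median of -0.48. The fifth (36.18 to 37.82 Mb, 25 genes) had 2 lower and a median of -0.29, and the ninth (57.19 to 58.48 Mb, 42 genes) had 3 higher, 5 lower and a median of -0.08. The 17 genes outside had 3 higher and 2 lower and a median of 0.19. Abundance differed too: the median level was 4.63 log2 CPM outside the clusters, 4.06 in the first, 3.93 in the eighth, 3.48 in the seventh, 3.29 in the sixth and 2.58 in the second, and its part in these differences was not tested.

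**Figure D3:**
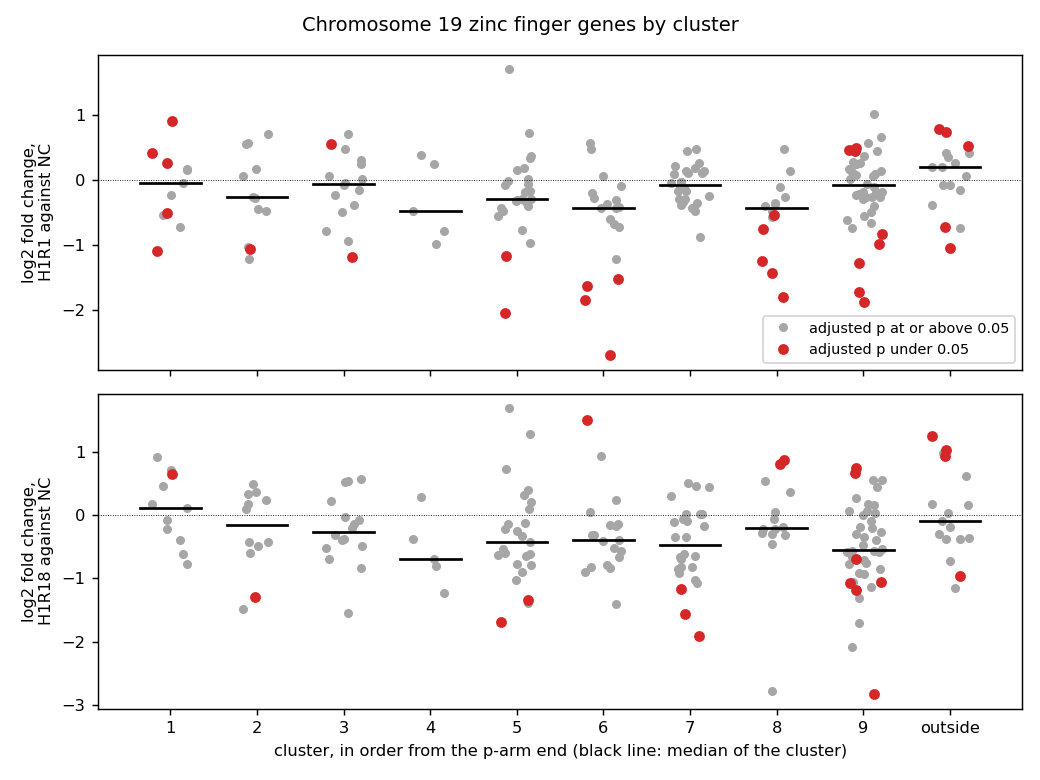
Log2 fold change against NC at H1R1 (top) and H1R18 (bottom) of each of the 187 genes by position cluster, with black lines at the medians and red dots where the adjusted p was under 0.05. At H1R1 the sixth and eighth clusters lie lowest among those with more than 5 genes (medians -0.43 and -0.44), and at H1R18 the ninth does (-0.55), while the first stays near 0 in both.

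After 6 h of recovery the set lay close to NC. Between libraries of a condition, a difference of set medians had a standard deviation of 0.143. The set medians against NC were -0.11 at H1 and -0.18 at H1R1, and whether H1R6 differed from these was not tested. The median log2 fold change was 0.01, and 92 of 187 genes were below 0. Of the 187 genes, 4 were called higher, where 3.0% of all genes were, and none lower, where 4.03% of all genes were. At an unadjusted p under 0.05, 3 were lower and 10 higher, and DESeq2 called none lower. The genes called higher were ZNF561 and ZNF121, described above, ZNF333 and ZNF540. ZNF540 had 0.408 and 0.522 CPM in NC, both under 1 CPM, and 3.53 and 2.43 at H1R6 (adjusted p = 0.047). Its call held in 8 of 15 settings and was lost without either library of NC (adjusted p = 0.20 and 0.13), H1 (0.068 and 0.070) or H1R6 (0.23 and 0.11) and with a replicate block (0.060).

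ZNF333 (chr19:14689801-14733746), a KRAB gene outside the clusters, changed late. It had 13.1 and 10.4 CPM in NC, then 10.3 and 13.4 after heat, 6.01 and 12.7 after 1 h of recovery, 23.7 and 28.3 after 6 h and 28.2 after 18 h. The log2 fold change was 1.13 ± 0.26 at H1R6 (adjusted p = 0.0046) and 1.25 ± 0.31 at H1R18 (adjusted p = 0.0072). The first of these calls was lost without the second NC library or the second H1R6 library. The second held in all 16 alternative settings, each of which keeps the only H1R18 library. The gene overlaps ADGRE2 and ADGRE3 on the opposite strand, and the counting used no strand and left out reads assigned to several genes.

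The steps between times are differences of the comparisons with NC in the same fit, so they give no separate evidence of the course. From H1 to H1R1, 5 genes rose, where 6.35% of all genes did, and 5 fell, where 5.08% of all genes did. From H1R1 to H1R6, 11 rose, where 6.43% of all genes did, and 4 fell, where 8.93% of all genes did. From H1R6 to H1R18, 6 rose, where 6.28% of all genes did, and 18 fell, where 7.65% of all genes did. The median log2 change was 0.17 from H1R1 to H1R6 and -0.31 from H1R6 to H1R18. Consecutive steps share libraries and are given side by side.

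At H1R18, known from 1 library, the set as a whole lay low. Of 187 genes, 128 were below 0 and the median was -0.32, against -0.03 for all genes tested and 0.00 for protein-coding genes within the quartiles of the set's level. The median was -0.31 among the more abundant genes and -0.42 among the less abundant, so this shift, unlike that at H1R1, was present in both groups. ZNF genes of other chromosomes had a median of -0.10, with 134 of 229 below 0, and the other protein-coding genes of chromosome 19 had a median of 0.08, with 367 of 824 below 0. The genes took 0.302% of the counts of this library, the lowest share of the 9, against 0.326% and 0.317% in NC. A lower level may mean fewer cells with the transcript or less of it per cell, which cannot be told apart in bulk RNA. Whether the shift belongs to the recovery time or to this library cannot be told apart either.

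**Figure D4:**
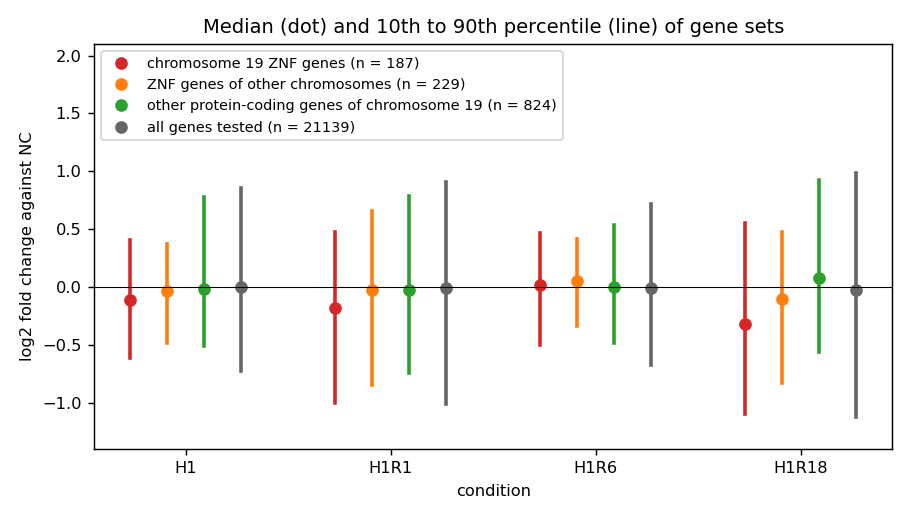
Median (dot) and 10th to 90th percentile (line) of the log2 fold change against NC of 4 gene sets at each time. The chromosome 19 ZNF genes (red) have medians of -0.11, -0.18, 0.01 and -0.32 from H1 to H1R18, and the medians of all genes tested (grey) stay between -0.03 and -0.01.

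By single genes, 9 were called higher at H1R18, where 4.58% of all genes were, and 12 lower, where 6.43% of all genes were. All 12 match the KRAB pattern, as do 81.7% of the genes with a coding transcript. None of the 34 genes without a match was called lower, although 5 of these had an unadjusted p under 0.05 in that direction. Counts this small lie near those shares and are not read as a trait of either group. The pattern was searched in a single transcript per gene, so genes without a match may still carry the domain. The median was -0.38 in the 152 genes with a match and -0.24 in the 34 without. This difference was not tested. DESeq2 called 5 higher and 6 lower. Without the first NC library fewer genes were lower, and without the second fewer were higher. Over all genes tested, calls also fell in each of these settings.

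ZNF480 (chr19:52297169-52325922) of the seventh cluster had between 9.18 and 18.7 CPM in the 8 libraries before H1R18 and 3.59 CPM at H1R18. In NC it had 12.6 and 14.6 CPM, and the log2 fold change was -1.91 ± 0.43 (adjusted p = 0.0028). ZNF175 (chr19:51571283-51592510), known as OTK18, lies in the same cluster, with other genes of the set between it and ZNF480. It had 20.8 and 18.8 CPM in NC, then 18.2 and 15.5 after heat, 18.4 and 13.6 after 1 h of recovery, 15.2 and 12.2 after 6 h and 6.67 after 18 h. Its log2 fold change at H1R18 was -1.57 ± 0.35 (adjusted p = 0.0024). ZNF211 (chr19:57630395-57644041) of the ninth cluster had 8.56 and 6.26 CPM in NC, between 4.24 and 8.44 in the libraries from H1 to H1R6 and 1.03 at H1R18, a log2 fold change of -2.84 ± 0.67 (adjusted p = 0.0046). In all 3 genes H1R18 was the lowest of the 9 libraries. The calls held in all 16 alternative settings, but each of these keeps the only H1R18 library and so does not test its value. In that library ZNF175 had 26 counts and ZNF480 had 14, and ZNF211, at 1.03 CPM, had fewer. Each read of a pair was counted, so these stand for fewer read pairs.

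ZNF829 (chr19:36888124-36916291) of the fifth cluster had 9.79 and 6.78 CPM in NC and 2.57 at H1R18, a log2 fold change of -1.70 ± 0.51 (adjusted p = 0.028), a call that held in 12 of 16 settings and was lost, among others, without the first NC library (adjusted p = 0.15) and under DESeq2 (0.097). It overlaps ZNF345 on the opposite strand. ZNF614, the most abundant gene of the seventh cluster, had 24.1 and 34.2 CPM in NC and 12.8 at H1R18, a log2 fold change of -1.17 ± 0.28 (adjusted p = 0.0059, or 0.069 without the second NC library).

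The genes that rose at H1R18 included some that had fallen earlier. ZNF555 (chr19:2841437-2860471), a KRAB gene outside the clusters, had 15.1 and 13.05 CPM in NC, then 6.42 and 6.36 after heat, 8.69 and 8.44 after 1 h of recovery, 11.7 and 12.5 after 6 h and 26.9 after 18 h. The log2 fold change was -1.14 ± 0.27 at H1 (adjusted p = 0.0073), -0.72 ± 0.26 at H1R1 (adjusted p = 0.049) and 0.93 ± 0.28 at H1R18 (adjusted p = 0.030). The groups did not overlap at any of these times. DESeq2 gave adjusted p = 0.050, 0.17 and 0.12 for the same 3 differences, and without the second NC library the rise at H1R18 had an adjusted p of 0.10. That rise held in 12 of 16 settings. The H1R1 call held in 4 of 17 alternative settings. The H1 call was lost without the first NC library (adjusted p = 0.087) and without either H1 library (0.064 and 0.080).

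ZNF233 (chr19:44259880-44275317) of the sixth cluster had 4.49 and 4.17 CPM in NC, then 3.92 and 4.59 after heat, 1.00 and 1.88 after 1 h of recovery, 6.36 and 3.82 after 6 h and 12.3 after 18 h. It was lower at H1R1, with a log2 fold change of -1.63 ± 0.52 (adjusted p = 0.024), and higher at H1R18, with one of 1.4995 ± 0.48 (adjusted p = 0.041), and neither call held without the first NC library (adjusted p = 0.10 in both) or the second (0.059 and 0.11). The fall at H1R1 was also lost without the first H1R1 library (0.23). The fall held in 12 of 17 settings and the rise in 9 of 15. ZNF77 (chr19:2933218-2944971) had 8.16 and 7.83 CPM in NC, between 9.38 and 13.6 from H1 to H1R6 and 16.4 at H1R18. It was above NC in all later libraries, and at H1R18 by 1.03 ± 0.33 (adjusted p = 0.040), a call that held in 11 of 16 settings. It was lost without either NC library (adjusted p = 0.090 and 0.096) or a filter on low counts (0.087), under DESeq2 (0.13) and with a replicate block (0.076).

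**Figure D5:**
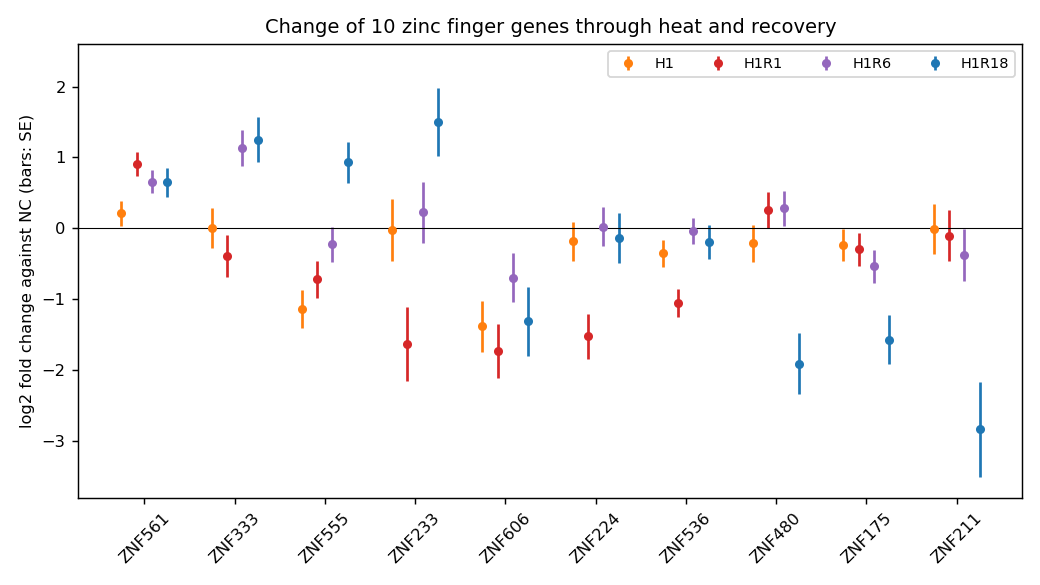
Log2 fold change against NC with its SE for 10 zinc finger genes at H1 (orange), H1R1 (red), H1R6 (purple) and H1R18 (blue). ZNF606, ZNF224 and ZNF536 are lowest at H1R1, ZNF480, ZNF175 and ZNF211 have calls only at H1R18, and ZNF555 and ZNF233 go from below 0 at H1R1 to above 0 at H1R18.

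The neighbouring pairs shown above differed in how alike their transcripts moved. ZNF264 and ZNF805 rose together at H1R18, from 46.9 and 38.096 CPM in NC to 67.5 for ZNF264, a log2 fold change of 0.66 ± 0.17, and from 32.6 and 29.2 CPM to 51.8 for ZNF805, a log2 fold change of 0.74 ± 0.19 (adjusted p = 0.0085 in both). ZNF587B had 49.3 and 45.1 CPM in NC and 29.3 at H1R18, a log2 fold change of -0.69 ± 0.18 (adjusted p = 0.012), while ZNF587 had 44.5 and 36.0 in NC and 42.3 at H1R18, a log2 fold change of 0.07 ± 0.19. ZNF780B had 20.5 CPM at H1R18, a log2 fold change of -0.97 ± 0.24 (adjusted p = 0.0073), and ZNF780A had 35.4 CPM, a log2 fold change of 0.04 ± 0.19. Without the second NC library the adjusted p of ZNF264 was 0.057, and without the first that of ZNF587B was 0.070. The differences within pairs were not tested.

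Across the 4 comparisons with NC, 50 genes were called at least once and 137 were not called. At H1R1 alone, 10.7% of all genes tested were called higher and 9.53% lower. The share of all genes called at least once, or more often, was not counted. These totals are therefore not read as a trait of the set. Calls at more than 1 time were found in 10 genes, which were, beside ZNF561, ZNF121, ZNF555, ZNF627, ZNF524, ZNF606, ZNF333 and ZNF233, the pair ZNF264 and ZNF805. The median log2 CPM of the set was 3.61 and 3.51 in NC, then 3.38 and 3.44 after heat, 3.26 and 3.48 after 1 h of recovery, 3.46 and 3.59 after 6 h and 3.27 after 18 h. Outside the set, the coding genes with the course most like that of this median, over 9 libraries and 11733 genes searched, were KIF24 (Pearson's r = 0.946), JAGN1 (0.908), RNF207 (0.901), PIP5K1C (0.900) and HROB (0.898). As the highest of so many correlations over so few libraries, these were not tested and are given as a description.

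Of the 187 genes, 101 overlap another gene on the opposite strand and 80 on the same strand. Among the called genes, 5 of 5 at H1, 19 of 32 at H1R1, 2 of 4 at H1R6 and 9 of 21 at H1R18 overlap a gene on the opposite strand. Reads in such overlaps were not assigned to either gene where exons of both cover them, and reads elsewhere in an exon carry no strand.

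The proteins through which KRAB zinc finger proteins silence their targets were taken from a list of 31 genes, of which 30 were tested. By edgeR none was called at H1, although 3 higher and 3 lower had an unadjusted p under 0.05, and none by DESeq2. At H1R1, 4 were higher and 5 lower, where 10.7% and 9.53% of all genes were. At H1R6, 1 was higher and 2 lower, beside 3.0% and 4.03% of all genes. At H1R18, 3 were higher, beside 4.58% of all genes, and 10 lower. At H1R18 the 10 falls among 30 genes stood beside falls in 6.43% of all genes, in the same single library that gave the shift of the zinc finger genes. The listed genes are abundant, averaging 4.35 to 9.26 log2 CPM, against a median of 3.44 for the zinc finger genes. Since calls were more frequent among abundant coding genes at H1R1, the shares over all genes are not matched to this list by level. The median log2 fold change of the list at H1R18 was -0.08.

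TRIM28, the scaffold that binds the KRAB domain, had 651 and 563 CPM in NC, then 660 and 676 after heat, 693 and 673 after 1 h of recovery, 537 and 543 after 6 h and 452 after 18 h. It fell by 0.42 ± 0.09 on the log2 scale at H1R18 (adjusted p = 0.0011). CBX5, the heterochromatin protein HP1 alpha, had 660 and 667 CPM in NC, then 518 and 573 after 1 h of recovery, 521 and 501 after 6 h and 776 after 18 h. It was lower at H1R1 (-0.28 ± 0.07, adjusted p = 0.0023, or 0.075 without the first H1R1 library) and at H1R6 (-0.38 ± 0.07, adjusted p = 0.00028), and above both NC libraries at H1R18 (0.23 ± 0.08, adjusted p = 0.066). The last missed the threshold in 7 of 16 alternative settings and passed it in the others, with adjusted p from 0.0064 to 0.13.

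UHRF1, which brings the maintenance DNA methyltransferase to newly copied DNA, had 237 and 196 CPM in NC, then 249 and 261 after heat, 292 and 295 after 1 h of recovery, 200.3 and 216 after 6 h and 113 after 18 h. It rose by 0.43 ± 0.09 at H1R1 (adjusted p = 0.00039) and fell by 0.95 ± 0.12 at H1R18 (adjusted p = 8.4e-07). PPHLN1 and MPHOSPH8, of the HUSH silencing complex, fell by 0.94 ± 0.16 and 0.80 ± 0.20 at H1R18 (adjusted p = 0.00014 and 0.0079), and without the first NC library the adjusted p of MPHOSPH8 was 0.085. Their partner TASOR was not called at any time against NC, at -0.06 ± 0.10. DNMT3A, which methylates DNA anew, had 99.1 and 85.8 CPM in NC and 54.5 and 67.8 at H1R1, a change of -0.61 ± 0.12 (adjusted p = 0.00035). SETDB1, the histone methyltransferase of the pathway, had 62.8 and 69.1 CPM in NC and 89.6 at H1R18, a log2 fold change of 0.44 ± 0.14 (adjusted p = 0.036). That call was lost without the first NC library (adjusted p = 0.12) or the first H1 library (0.051) and under DESeq2 (0.092). DNMT1 and NAP1L1, among the most abundant of the list, were not called in any comparison with NC.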

How the data were processed

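RNA-seq of 9 HEK293T libraries was used, grouped by the treatment in the sample labels. The authors deposited raw counts per gene, made by trimming with cutadapt 4.1, aligning with HISAT2 2.2.1 and counting over Ensembl 104 exons (GRCh38) with featureCounts 2.0.2. Each read of a pair was counted, without strand and without reads of several alignments or genes. The processing notes also name FastQC 0.11.8 and DESeq2 1.38.3. Here, genes were filtered with filterByExpr (minimum count 10, total 15), scaled by TMM and fitted with edgeR 4.0.16 (quasi-likelihood, 1 coefficient per condition, all 9 libraries, R 4.3.3), with p adjusted by Benjamini-Hochberg over 21139 genes. Standard errors were derived as the absolute log2 fold change over the root of the F statistic. Alternatives used DESeq2 1.42.0, other scalings and filters, and each library left out. In comparisons with H1R18 its only library was always kept. Settings that gave a gene no adjusted p were left out of its number of settings. DESeq2 was such a setting for ZNF540 at H1R6, ZNF155 at H1R1 and ZNF233 at H1R18. The scripts were tested on simulated data. Gene types, transcripts and domains came from GENCODE 29, and promoters from RefSeq. Symbols were found for 60463 of 60664 identifiers.

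The genes and lists were chosen with earlier results of these data known. Genes were named by rule: in each comparison with NC, up to 4 per direction with the largest change among those called, averaging at least 2 log2 CPM and without overlap with NC, the 6 most abundant, the most abundant in each cluster, and of the KRAB co-repressors the 4 most abundant and the 4 with the smallest adjusted p. Others named were chosen after their values were seen. Libraries of a condition differed more than counting error over all genes (chi-square per degree of freedom from 1.59 to 2.14 on counts halved to read pairs) and by about counting error over the zinc finger genes (0.978 to 1.16).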

Additional observations from a re-analysis of the deposited data

Results flagged for a closer look

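Several genes changed between consecutive times by a test of that difference itself (edgeR, adjusted p under 0.05), which is what brought them here, and all values below are log2 fold changes of the later against the earlier time. From H1 to H1R1, ZNF561 rose by 0.70, ZNF557 by 0.63 and ZNF507 by 0.34, while ZNF233 changed by -1.60. From H1R1 to H1R6, ZNF837 rose by 1.85, ZNF784 by 1.59, ZNF233 by 1.86 and ZNF333 by 1.53, while ZNF574 changed by -0.71, ZNF431 by -0.39 and ZNF507 by -0.39. From H1R6 to H1R18, ZNF555 rose by 1.15, while ZNF211 changed by -2.46, ZNF480 by -2.19, ZNF829 by -1.79, ZNF175 by -1.03, ZNF614 by -1.02, ZNF557 by -0.93, ZNF121 by -0.39 and ZNF146 by -0.34.

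Among the co-repressor genes, the change from H1 to H1R1 was -0.24 for CBX5 and -0.38 for DNMT3A. From H1R1 to H1R6 it was -0.34 for TRIM28, -0.29 for DNMT1 and -0.50 for UHRF1. From H1R6 to H1R18 it was 0.60 for CBX5, 0.60 for DNMT3A, -0.26 for TRIM28, -0.89 for UHRF1 and -0.96 for PPHLN1. The differences to H1R18 rest on 1 library.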

How the results depend on the processing

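The medians of the zinc finger genes against NC kept their direction in all alternatives tried, except at H1R6, where the median was near 0 (from -0.008 to 0.066 with each library left out). With each library left out they ran from -0.121 to -0.035 at H1, -0.213 to -0.12 at H1R1 and -0.32 to -0.261 at H1R18. Counts of called genes moved more. Over all genes tested, calls also fell in each direction when a library of either compared condition was left out. With each library left out, genes higher and lower numbered 0 to 1 and 0 to 4 at H1, 6 to 11 and 5 to 19 at H1R1, 4 to 10 and 6 to 13 at H1R18, 0 to 7 and 1 to 7 from H1 to H1R1, 5 to 12 and 1 to 5 from H1R1 to H1R6, and 3 to 6 and 7 to 21 from H1R6 to H1R18. At H1R6 against NC, 0 to 4 were higher.

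DESeq2 gave 0 higher and 0 lower at H1, 10 lower at H1R1, 5 higher and 6 lower at H1R18, 3 higher and 1 lower from H1 to H1R1, 6 higher from H1R1 to H1R6, and 3 higher and 9 lower from H1R6 to H1R18. Without a filter, 5 were higher at H1R18. With counts halved to read pairs, 2 were higher at H1 and 8 from H1 to H1R1. With protein-coding genes alone, 2 were higher at H1. With library size alone as scaling, 18 were higher from H1R1 to H1R6. Over all genes tested, DESeq2 also called fewer genes in each direction in every comparison. The cause of these differences between settings was not tested. A gap of 250 kb in place of 500 kb gave 10 clusters with 166 genes.

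Co-repressor genes called higher or lower changed too. With each library left out, 0 to 1 were higher at H1, 1 to 5 lower at H1R1, 0 to 1 higher and 1 to 3 lower at H1R6, and 1 to 4 higher at H1R18. DESeq2 gave 2 lower at H1R1, 0 higher and 1 lower at H1R6 and 6 lower at H1R18. Library size alone gave 2 higher at H1R1 and 2 higher and 1 lower at H1R6. Fitting only the conditions compared gave 3 lower at H1R1 and 1 at H1R6. Without a filter, 1 was lower at H1R6 and 1 higher at H1R18. Protein-coding genes alone gave 1 higher at H1, 2 higher at H1R6 and 5 higher at H1R18.

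Replicate numbers do not pair the samples: deviations of libraries with the same number correlated between -0.036 and 0.044. With the replicate number as a block, 3 zinc finger genes in place of 6 were higher from H1R6 to H1R18, and no other count of calls moved by over 1.5 times. Precision was limited by 1 library at H1R18 and by depth, with a median of 480 counts per gene over the 9 libraries.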
